A study of Mus musculus with 6 samples.

Results

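The tumour necrosis factor (TNF) superfamily comprises the TNF ligands and their receptors. Its members were taken as the genes whose symbol begins with Tnfsf or Tnfrsf and a number, together with Tnf, Lta, Ltb, Ltbr, Fas, Fasl, Cd27, Cd70, Cd40 and Cd40lg. This gave 39 genes, 15 ligands and 24 receptors, of the 22180 genes that had a probe set of their own on the arrays. Each of the 39 was read by 1 probe set. The RefSeq gene table holds 42 genes that match the rule, and the other 3, Tnfsf12, Tnfsf13 and Tnfsf13os, were not analysed here. Receptors of the superfamily that carry other symbols, such as Ngfr, were not members.

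Expression was measured in 6 tumours of B16-F1, a pigmented mouse melanoma line, each on its own Affymetrix array. The cells had been implanted in the dorsal flank of mice of C57BL6 background, and tumours were taken on day 20. Of the 6 tumours, 3 came from wild type (WT) hosts and 3 from hosts labelled Stat2 KO, replicates 1 to 3 in each group. STAT2 is a transcription factor that acts in the nucleus after type I interferon binds its receptor. The genotype is that of the mouse, and no label says that the melanoma cells lack Stat2. Per the submitters' design text the Stat2 KO hosts carried larger tumours, so tumour size and host genotype cannot be told apart. The labels do not say that each tumour came from a separate mouse, so a p-value here speaks of the spread among these 6 tumours, which may be partly technical.

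TNF ligands are made as trimers on the cell surface, and many are also shed. Receptors with a death domain, such as Fas, Tnfrsf1a and Tnfrsf10b, can start apoptosis through FADD and caspase-8. Receptors that bind TRAF adaptors, such as Cd40, Cd27 and Tnfrsf9, switch on NF-kB and act as costimulatory signals in T cells, B cells and dendritic cells. Soluble and decoy receptors bind the ligands without passing on a signal. In tumours these genes are used both by the cancer cells and by the immune and stromal cells around them.

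Values are RMA expression on the log2 scale, and differences are Stat2 KO host minus WT host, so 1 unit is a doubling. Levels of different genes come from different probes, so members were not ranked among themselves by level. Levels served only as a rough guide, to group genes as dim or bright and to set them beside background. The level of 1105 olfactory receptor genes, which a tumour is not known to use, served as a guide to background; their median was 5.21 and their 95th percentile 6.72. The mean over the 6 tumours was above 6.72 for 9 of the 39 members, between the median and that percentile for 26 and below the median for 4. Stat2 itself read 6.45, 6.48 and 6.33 in Stat2 KO hosts against 6.79, 6.70 and 6.70 in WT hosts, a difference of -0.31 (SE 0.126, limma adjusted p = 0.532). The sources used here do not say whether its probes lie in the deleted part of the gene. The melanocyte genes Pmel, Tyr, Tyrp1, Dct, Mlana, Mitf and Sox10 all read above 6.72 on average, 7 of 7. The mean level of these 7 genes was 11.18 to 11.56 in the Stat2 KO tumours and 11.42 to 11.64 in the WT tumours.

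Across the superfamily the differences were small. They ran from -0.34 for Tnfrsf11b to 0.50 for Tnfsf11, with a median of 0.066 beside 0.021 over all genes tested, and 15 of the 39 members lay within 0.1 of zero. With limma and Benjamini-Hochberg adjustment over all genes, 0 of 39 members passed 0.05, where 0.00902% of all genes did, and the smallest adjusted p of a member was 0.460. At an unadjusted p under 0.05 there were 4 members, 10.3% beside 8.82% of all genes. Of these, Tnfsf11, Cd40 and Cd27 were higher in Stat2 KO hosts, 3 of 39 members where 5.34% of all genes were higher at that threshold, and Tnfrsf11b was lower, 1 of 39 where 3.48% were lower. The 2 groups of 3 tumours did not overlap for 8 members, 20.5% beside 13.3% of all genes. These were 7 higher members, Tnfsf11, Tnf, Fasl, Tnfsf14, Cd27, Tnfrsf4 and Tnfrsf25, where the background was 8.23%, and 1 lower member, Tnfrsf11b, where it was 5.11%. Among the olfactory receptor genes 24.1% had an unadjusted p under 0.05 and 22.2% did not overlap. In bulk tumours fewer cells of a type and less RNA per cell cannot be told apart.

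**Figure D1:**
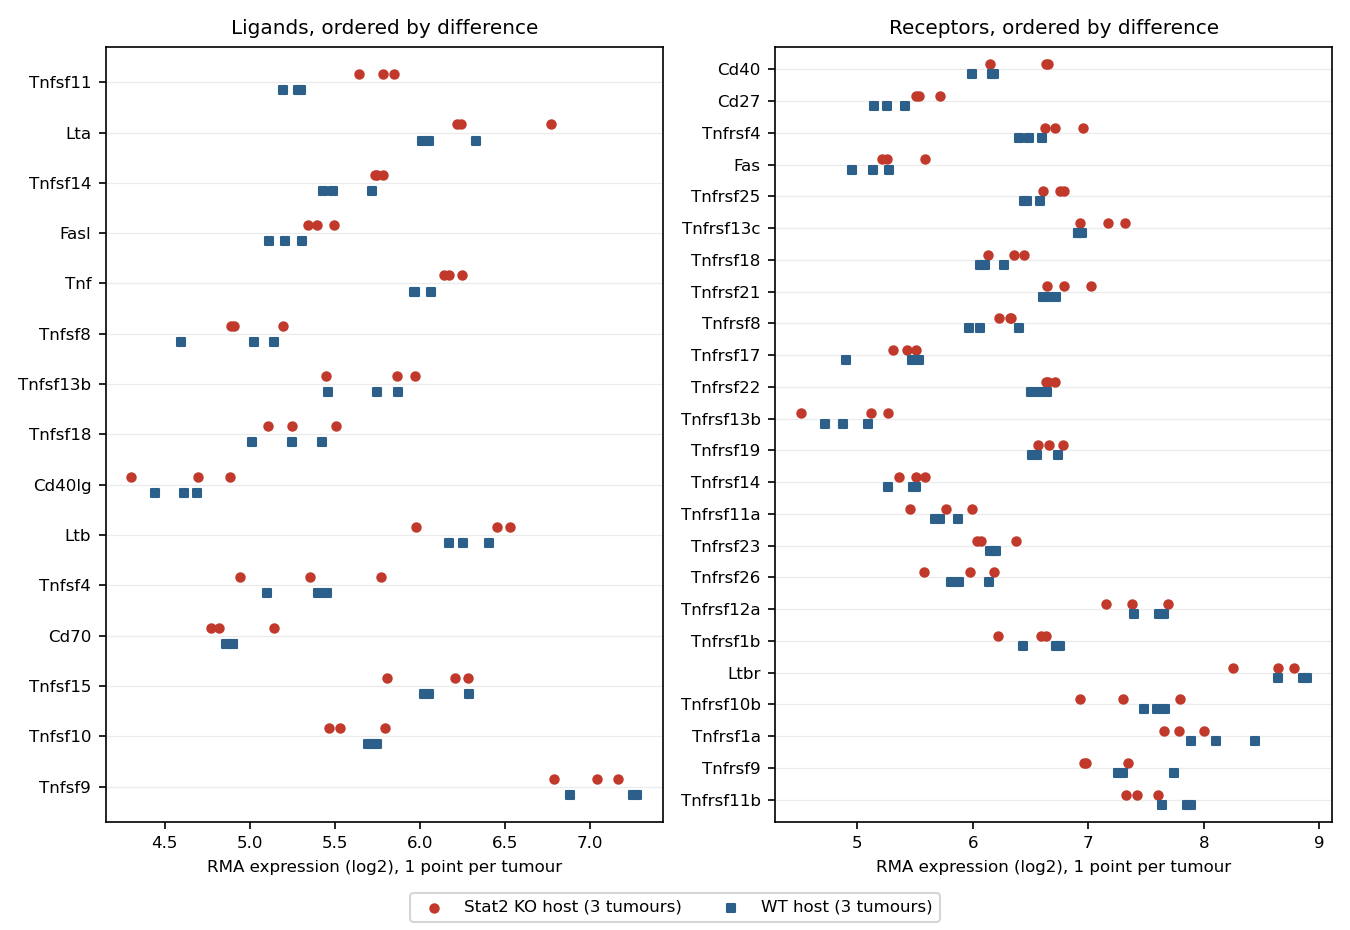
RMA expression (log2, x axis) of the 15 ligands (left) and 24 receptors (right) in each tumour, with 3 Stat2 KO host tumours as red circles and 3 WT host tumours as blue squares. Genes are ordered by their difference, and for most of them the circles and squares overlap; Tnfsf11 at the top left and Tnfrsf11b at the bottom right are among the 8 whose groups do not.

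The sign of a member's difference went with its level. All genes tested were split by mean level into 5 equal parts, whose median differences were 0.10, 0.12, 0.074, -0.068 and -0.11 from the dimmest to the brightest. Of the 30 members in the 3 dimmer parts, 24 were higher in Stat2 KO hosts and 6 lower. Of the 9 members in the 2 brighter parts, 2 were higher and 7 lower. The olfactory receptor genes had a median difference of 0.22. After a further quantile normalization of the arrays, which brought the 5 medians to between -0.007 and 0.016, 17 members were higher in place of 26, and after cyclic loess 16 were. Over all genes 54.0% were higher before that scaling. After quantile normalization 11232 of 22180 were, and after cyclic loess 11139. The median of the members was -0.049 after quantile normalization and -0.046 after cyclic loess. That of the olfactory receptor genes was still 0.135 and 0.131, so these scalings did not remove their shift. The 9 members that turned from higher to lower after quantile normalization, Cd40lg, Cd70, Ltb, Tnfsf4, Tnfsf8, Tnfsf13b, Tnfsf18, Tnfrsf13b and Tnfrsf14, all differed by less than 0.1 as deposited.

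**Figure D2:**
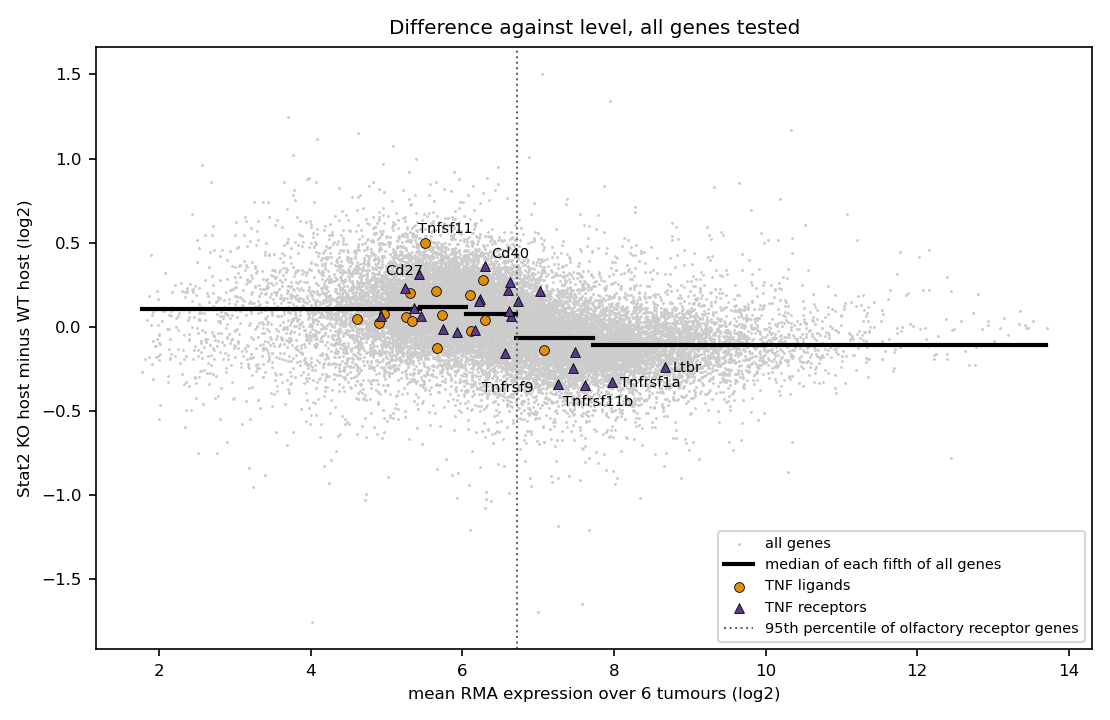
Difference between host genotypes (log2, y axis) against the mean level over 6 tumours (log2, x axis) for all genes (grey points), the ligands (orange circles) and the receptors (purple triangles). Black bars are the medians of the 5 parts of all genes by level, and the dotted line is the 95th percentile of olfactory receptor genes at 6.72; 24 of the 30 members left of it lie above zero and 7 of the 9 right of it below, and after quantile normalization 9 of the former turn sign.

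Single tumours also weighed on the members. Stat2 KO replicate 2 held the highest value for 21 of 39 members, 53.8%, where it held the highest value for 26.6% of all genes. Stat2 KO replicate 1 held the lowest value for 10 of 39 members, and for 12.6% of all genes. Without Stat2 KO replicate 1 the count of members at an unadjusted p under 0.05 was 8, beside 14.7% of all genes. Without Stat2 KO replicate 3 it was 1, beside 5.68% of all genes. Without WT replicate 2 it was 2, beside 5.31% of all genes. Without WT replicate 3 it was also 2, but beside 12.02% of all genes. Correlations of single arrays with each other ran from 0.964 to 0.986 over all genes, and Stat2 KO replicate 2 had the lowest mean correlation, 0.971.

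Among the ligands Tnfsf11 stood out. It encodes RANKL, which drives osteoclast formation and also acts in lymph node development and between T cells and dendritic cells. It read 5.64, 5.85 and 5.79 in Stat2 KO hosts against 5.20, 5.28 and 5.30 in WT hosts. The 3 Stat2 KO tumours all lay above the 3 WT tumours (exact two-sided permutation p = 0.1, the smallest that 3 against 3 can give). The difference was 0.50 (SE 0.135, 95% interval 0.20 to 0.79), which makes the Stat2 KO mean 141% of the WT mean. Its unadjusted limma p was 0.00297 and its adjusted p 0.460. The difference stayed between 0.38 and 0.56 under the alternatives that held the gene, and the unadjusted p was under 0.05 in 14 of those 14 fits. Its mean of 5.51 exceeded that of 60.5% of olfactory receptor genes, so a signal above background was not shown for this probe set. The median difference of those olfactory receptor genes was itself 0.22.

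Tnfrsf11b encodes osteoprotegerin, the soluble decoy receptor that captures RANKL and also binds TRAIL. It differed in the opposite direction to its ligand. The tumours of Stat2 KO hosts read 7.32, 7.60 and 7.42, and those of WT hosts 7.89, 7.86 and 7.64, so every Stat2 KO tumour lay below every WT tumour, narrowly for Stat2 KO replicate 2 and WT replicate 3. The difference was -0.34 (SE 0.139, 95% interval -0.65 to -0.04). Its unadjusted limma p was 0.0300 and its adjusted p 0.532. The difference was -0.22 after quantile normalization and -0.24 after cyclic loess, where the unadjusted p no longer passed 0.05. Stromal cells are a known source of osteoprotegerin, and fibroblast markers were lower in 3 of 4 genes (Col1a1, Col1a2 and Dcn). The mean level of the 4 was 6.35 to 6.91 in Stat2 KO tumours and 6.99 to 7.16 in WT tumours. Their part in the difference of Tnfrsf11b was not tested. The signalling receptor Tnfrsf11a, known as RANK, read 5.46, 5.99 and 5.77 in Stat2 KO hosts against 5.72, 5.68 and 5.87 in WT hosts. The groups overlapped and the difference was -0.015 (SE 0.158).

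The promoter of Tnfsf11 is shown because it belongs to the member with the largest difference. The sequence is the 250 bases before the RefSeq start on GRCm38.p6, chr14:78308044-78308293, minus strand, in lower case.
Tnfsf11: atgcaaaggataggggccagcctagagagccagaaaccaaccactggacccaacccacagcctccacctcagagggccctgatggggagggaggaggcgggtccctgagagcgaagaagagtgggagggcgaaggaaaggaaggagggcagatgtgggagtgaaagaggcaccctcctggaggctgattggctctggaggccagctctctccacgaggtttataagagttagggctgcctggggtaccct
This window held no match to either motif searched, which are described with the other promoters below.

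Tnf, the inflammatory cytokine that names the family and comes mainly from macrophages and T cells, read 6.14, 6.25 and 6.17 in Stat2 KO hosts against 5.97, 5.97 and 6.07 in WT hosts. The groups did not overlap, and the difference was 0.19 (SE 0.126, 95% interval -0.09 to 0.46, limma adjusted p = 0.670). After quantile normalization it was 0.090. Macrophage markers were lower in 6 of 6 genes, with a mean level of 6.44 to 6.60 in Stat2 KO and 6.68 to 7.01 in WT tumours. Their part in the difference of Tnf was not tested.

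Lta and Ltb encode the lymphotoxins, which lymphocytes make and which shape lymphoid tissue. Lta read 6.22, 6.77 and 6.24 in Stat2 KO hosts against 6.33, 6.01 and 6.05 in WT hosts, a difference of 0.28 (SE 0.171). The high value of Stat2 KO replicate 2 carried much of it, and without that tumour the difference was 0.10. Ltb read 5.98, 6.53 and 6.45 in Stat2 KO hosts against 6.17, 6.25 and 6.41 in WT hosts, a difference of 0.043 (SE 0.163) that was -0.022 after quantile normalization.

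Fasl, the ligand by which cytotoxic lymphocytes trigger Fas, read 5.34, 5.50 and 5.39 in Stat2 KO hosts against 5.21, 5.11 and 5.31 in WT hosts. The groups did not overlap, with a difference of 0.20 (SE 0.138), close to the median of olfactory receptor genes. Tnfsf10 encodes TRAIL, a death ligand known to be induced by interferons. It read 5.53, 5.79 and 5.47 in Stat2 KO hosts against 5.71, 5.70 and 5.75 in WT hosts. Replicate 2 of the Stat2 KO hosts was above all WT tumours and the other Stat2 KO tumours were below them. The difference was -0.12 (SE 0.140, 95% interval -0.43 to 0.18, limma adjusted p = 0.795), and it was -0.24 after quantile normalization and -0.059 without Stat2 KO replicate 3.

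The costimulatory ligands differed little. Tnfsf9, the partner of the T cell receptor gene Tnfrsf9, read 7.17, 7.04 and 6.79 in Stat2 KO hosts against 6.88, 7.28 and 7.26 in WT hosts, a difference of -0.14 (SE 0.157). It ranged from -0.27 without WT replicate 1 to -0.035 without Stat2 KO replicate 3, and was -0.30 with array weights. Tnfsf4, which engages Tnfrsf4 on activated T cells, read 4.94, 5.77 and 5.36 in Stat2 KO hosts against 5.46, 5.10 and 5.40 in WT hosts, a difference of 0.036 (SE 0.20). Its Stat2 KO tumours spanned the whole WT range on both sides.

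Tnfsf18, the ligand of Tnfrsf18, read 5.25, 5.11 and 5.51 in Stat2 KO hosts against 5.42, 5.01 and 5.25 in WT hosts, a difference of 0.059 (SE 0.163). Cd70, the ligand of Cd27, read 4.82, 5.14 and 4.77 in Stat2 KO hosts against 4.90, 4.86 and 4.90 in WT hosts, a difference of 0.024 (SE 0.154). Cd40lg, which helper T cells use to activate Cd40, read 4.30, 4.70 and 4.89 in Stat2 KO hosts against 4.44, 4.69 and 4.61 in WT hosts, a difference of 0.046 (SE 0.181). All 3 genes had overlapping groups, and Cd70 and Cd40lg read below the olfactory median in their mean. After quantile normalization the differences of Tnfsf4, Tnfsf18, Cd70 and Cd40lg were -0.088, -0.056, -0.084 and -0.060, so these 4 turned sign with the scaling.

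Tnfsf13b encodes BAFF, a survival factor of B cells that myeloid cells make and that interferons are known to induce. It read 5.45, 5.97 and 5.86 in Stat2 KO hosts against 5.46, 5.75 and 5.87 in WT hosts, a difference of 0.069 (SE 0.171) that was -0.049 after quantile normalization. The other ligands were Tnfsf14, Tnfsf8 and Tnfsf15, with differences of 0.21, 0.079 and -0.025, of which that of Tnfsf8 turned to -0.032 after quantile normalization. Taking the 15 ligands as deposited, 12 were higher and 3 lower in Stat2 KO hosts with a median of 0.059, but 5 were higher after quantile normalization and 5 after cyclic loess.

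Receptors with a death domain fell on both sides of zero. Tnfrsf1a encodes the main receptor of soluble TNF, present on nearly all cells. It read 8.004, 7.78 and 7.66 in Stat2 KO hosts against 7.88, 8.44 and 8.11 in WT hosts, so only Stat2 KO replicate 1 reached into the WT range. The difference was -0.33 (SE 0.165, 95% interval -0.69 to 0.03, limma adjusted p = 0.591), and -0.21 after quantile normalization. Tnfrsf10b, the one death receptor of TRAIL in the mouse, read 7.79, 6.93 and 7.30 in Stat2 KO hosts against 7.59, 7.48 and 7.67 in WT hosts. Stat2 KO replicate 1 was the highest and replicate 2 the lowest of all tumours, and the difference was -0.24 (SE 0.191). Without Stat2 KO replicate 2 it was -0.037, and without replicate 1 it was -0.47.

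Fas, the receptor of Fas ligand and a gene known to respond to interferon gamma, read 5.58, 5.26 and 5.22 in Stat2 KO hosts against 4.96, 5.14 and 5.27 in WT hosts. The difference was 0.23 (SE 0.157, 95% interval -0.11 to 0.57, limma adjusted p = 0.671) and 0.12 after quantile normalization, and 0.12 without Stat2 KO replicate 1. Tnfrsf25, the receptor of Tnfsf15 on T cells, differed by 0.22 with groups that did not overlap, and Tnfrsf21 by 0.16.

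Tnfrsf1b encodes the TRAF-binding second receptor of TNF, found mainly on immune and endothelial cells. It read 6.22, 6.59 and 6.64 in Stat2 KO hosts against 6.43, 6.76 and 6.72 in WT hosts, a difference of -0.16 (SE 0.156) that was -0.025 without Stat2 KO replicate 1. Ltbr, the lymphotoxin beta receptor of stromal and epithelial cells, read 8.64, 8.78 and 8.25 in Stat2 KO hosts against 8.86, 8.89 and 8.65 in WT hosts. Only the lowest WT tumour overlapped with the Stat2 KO tumours, and the difference was -0.24 (SE 0.160). Without Stat2 KO replicate 3 it was -0.087. The injury-induced receptor Tnfrsf12a differed by -0.15 and Tnfrsf19 by 0.066. With the arrays weighted by quality Tnfsf11, Cd40, Tnfrsf1a, Tnfrsf9, Tnfrsf11b and Ltbr had limma adjusted p-values of 0.0525, 0.0719, 0.0833, 0.0850, 0.0863 and 0.0985, where 257 of all genes passed 0.05. In that fit 22.6% of all genes had an unadjusted p under 0.05. Stat2 KO replicate 3 and WT replicate 2 weighed most, at 2.475 and 2.253, and the other tumours had weights of 0.510 to 0.878.

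The costimulatory receptors held the 2 receptors with the largest positive differences. Cd40, by which helper T cells activate B cells, dendritic cells and macrophages, read 6.15, 6.65 and 6.63 in Stat2 KO hosts against 6.17, 5.99 and 6.18 in WT hosts. Stat2 KO replicate 1 lay with the WT tumours and the other Stat2 KO tumours above them. The difference was 0.36 (SE 0.158, 95% interval 0.02 to 0.71), 0.52 without Stat2 KO replicate 1 and 0.31 after quantile normalization, where the unadjusted p no longer passed 0.05. Its unadjusted limma p was 0.0416 and its adjusted p 0.555. B cell markers were higher in 2 of 3 genes and in 1 of 3 after quantile normalization, with a mean level of 5.54 to 5.85 in Stat2 KO tumours and 5.54 to 5.765 in WT tumours. Dendritic cell markers were higher in 4 of 4 genes and in 3 of 4 after that scaling, at 5.87 to 6.01 against 5.61 to 5.90. None of these markers read above 6.72 on average, and their part in the difference of Cd40 was not tested.

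Cd27, a costimulatory receptor of T cells and memory B cells, read 5.51, 5.72 and 5.53 in Stat2 KO hosts against 5.15, 5.41 and 5.25 in WT hosts. The groups did not overlap, and the difference was 0.32 (SE 0.142, 95% interval 0.01 to 0.62). Its unadjusted limma p was 0.0464 and its adjusted p 0.562. The difference was 0.19 after cyclic loess, and the unadjusted p was under 0.05 in 6 of 14 fits and not after quantile normalization, median centring, cyclic loess or array weights. Its mean was above that of 57.2% of olfactory receptor genes. The median difference of those genes was 0.22 as deposited and 0.13 after cyclic loess. T cell markers were higher in 4 of 5 genes before and 1 of 5 after quantile normalization, with a mean level of 5.50 to 5.82 in Stat2 KO tumours and 5.57 to 5.68 in WT tumours. Their part in the difference of Cd27 was not tested.

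Tnfrsf4 and Tnfrsf18, known as OX40 and GITR, mark activated and regulatory T cells. Tnfrsf4 read 6.62, 6.96 and 6.71 in Stat2 KO hosts against 6.49, 6.60 and 6.40 in WT hosts, without overlap, a difference of 0.27 (SE 0.139, limma adjusted p = 0.600). It was 0.28 after quantile normalization and 0.17 without Stat2 KO replicate 2. Tnfrsf18 read 6.13, 6.45 and 6.36 in Stat2 KO hosts against 6.27, 6.10 and 6.06 in WT hosts, with overlap, a difference of 0.17 (SE 0.140) that was 0.097 without Stat2 KO replicate 2.

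Tnfrsf9, an activation marker of T and natural killer cells, went the other way. It read 7.35, 6.96 and 6.98 in Stat2 KO hosts against 7.26, 7.74 and 7.30 in WT hosts, so Stat2 KO replicate 1 lay among the WT tumours. The difference was -0.34 (SE 0.168, 95% interval -0.70 to 0.03, limma adjusted p = 0.588), with -0.18 without WT replicate 2 and -0.28 after quantile normalization. Natural killer cell markers were higher in 4 of 4 genes and in 3 of 4 after quantile normalization. None of the 4 read above 6.72 on average, and their part in the difference of Tnfrsf9 was not tested. Of the 7 costimulatory receptors 6 were higher and 1 lower with a median of 0.17, and 5 were higher after quantile normalization.

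The B cell receptors of BAFF and its relative were all higher as deposited, 3 of 3. Tnfrsf13c, the BAFF receptor, read 6.93, 7.32 and 7.17 in Stat2 KO hosts against 6.91, 6.95 and 6.91 in WT hosts. Stat2 KO replicate 1 lay between WT replicates and the others above all of them, and the difference was 0.21 (SE 0.139, limma adjusted p = 0.655) and 0.12 without Stat2 KO replicate 2. Tnfrsf17 and Tnfrsf13b differed by 0.11 and 0.067, and 2 of the 3 genes were higher after quantile normalization and 1 after cyclic loess. The decoy receptors Tnfrsf22 and Tnfrsf23 differed by 0.092 and -0.017, and Tnfrsf26, which was grouped with them here, by -0.032.

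**Figure D3:**
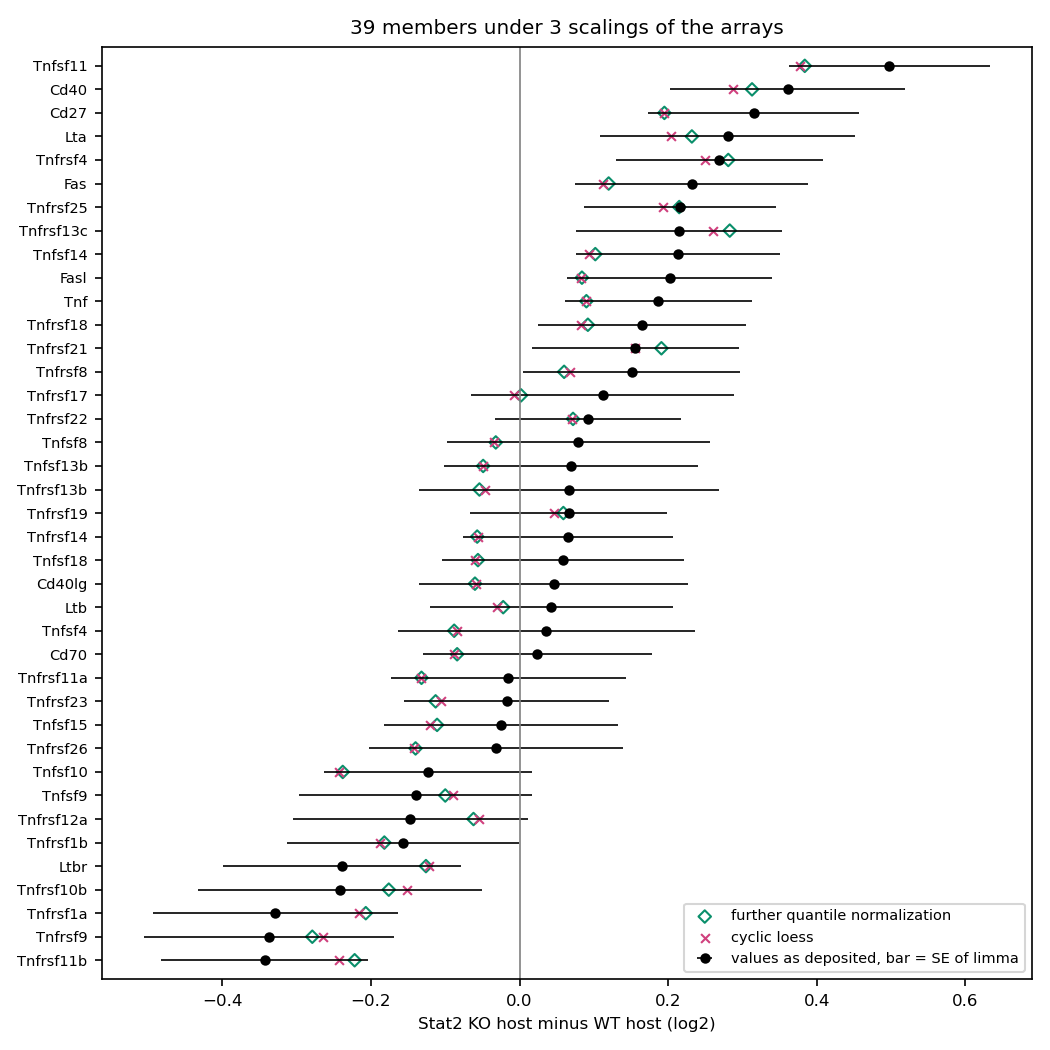
Difference of each of the 39 members (log2, x axis) with the values as deposited (black points, bars of 1 SE from limma), after a further quantile normalization (green diamonds) and after cyclic loess (pink crosses). The scaled values are shifted left for most dim members, and Tnfsf11 keeps the highest value under all 3.

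Ligands and receptors were also set side by side. Of 25 known pairs with both genes measured, 10 had both higher in Stat2 KO hosts, 4 had both lower, 9 had a higher ligand with a lower receptor and 2 had the reverse. After quantile normalization 1 of the 25 pairs, Fasl with Fas, had both higher, 6 had both lower, 9 had a higher ligand with a lower receptor and 9 the reverse. After cyclic loess 1 pair, again Fasl with Fas, had both higher. Pairs share genes, so these are not 25 independent values. As deposited, the 9 pairs with a higher ligand and a lower receptor involved Tnf, Lta, Ltb and Tnfsf14 with Tnfrsf1a, Tnfrsf1b and Ltbr. They also involved Tnfsf11 with Tnfrsf11a and Tnfrsf11b. After quantile normalization Ltb with Ltbr left this set and Tnfsf14 with Tnfrsf14 joined it. The pairs with both lower as deposited were Tnfsf9 with Tnfrsf9 and Tnfsf10 with Tnfrsf10b, Tnfrsf11b and Tnfrsf23. Pairs of lymphocyte costimulation, Cd40lg with Cd40, Cd70 with Cd27, Tnfsf4 with Tnfrsf4 and Tnfsf18 with Tnfrsf18, were among those with both higher. In each of these 4 the receptor had the larger difference, and the ligand turned below zero after quantile normalization.

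**Figure D4:**
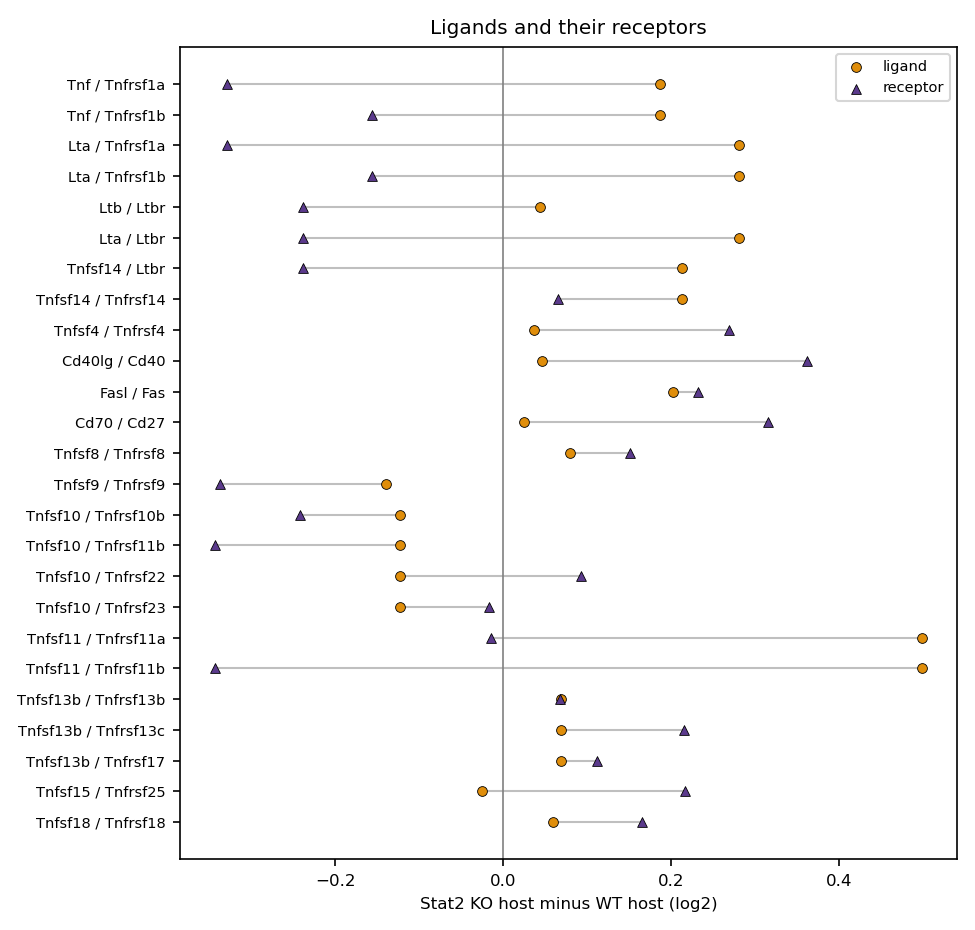
Differences between host genotypes (log2, x axis) of the ligand (orange circle) and the receptor (purple triangle) of each of 25 pairs, joined by a grey line. Values are as deposited; 10 pairs have both genes above zero here and 1 after quantile normalization, and the widest gap is that of Tnfsf11 at 0.50 and Tnfrsf11b at -0.34.

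Many of these genes lie next to each other in the mouse genome. Their differences are set side by side here, and differences between neighbours were not tested. Ltb, Tnf and Lta follow one another on chromosome 17 within the major histocompatibility complex, and differed by 0.043, 0.19 and 0.28. Tnfsf9, Cd70 and Tnfsf14, also neighbours on chromosome 17, differed by -0.14, 0.024 and 0.21. On chromosome 1 the neighbours Tnfsf4, Tnfsf18 and Fasl differed by 0.036, 0.059 and 0.20. On chromosome 6 Cd27, Ltbr and Tnfrsf1a, with 1 protein-coding gene between each, differed by 0.32, -0.24 and -0.33. On chromosome 4 Tnfrsf1b and Tnfrsf8 differed by -0.16 and 0.15, whereas Tnfrsf4 and Tnfrsf18 differed by 0.27 and 0.17. The neighbour order is that of RefSeq on GRCm38.p6.

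The pathway downstream of the receptors was followed in 5 lists of 83 measured genes in all. With adjustment over all genes 0 of the 83 passed in limma, and the smallest adjusted p was 0.291. Of 24 adaptors, kinases and ubiquitin enzymes, 3 were higher and 21 lower in Stat2 KO hosts, with a median of -0.11. After quantile normalization 6 were higher and 18 lower, with a median of -0.098. At an unadjusted p under 0.05 there was 1 gene, 4.17% beside 8.82% of all genes. This was Map3k5, the stress kinase ASK1, at -0.45 (SE 0.196), and the linear deubiquitinase gene Otulin, the adaptor gene Tab2 and the kinase gene Tbk1 differed by -0.42, -0.35 and -0.35. Without WT replicate 1 Map3k5, Otulin and Tbk1 were at -0.27, -0.21 and -0.19. Most genes of this list are bright, 18 of 24 above 6.72.

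NF-kB subunits and inhibitors were higher in 5 and lower in 6 of 11 genes with a median of -0.049, and 3 were higher after quantile normalization. Rel, a subunit that lymphocytes use, read 7.35, 6.84 and 7.07 in Stat2 KO hosts against 7.78, 7.33 and 7.30 in WT hosts, a difference of -0.38 (SE 0.174, limma adjusted p = 0.566) that was -0.225 without WT replicate 1. Nfkb2, the precursor of the subunit that acts downstream of Ltbr and Cd40, differed by -0.25 with groups that did not overlap. The inhibitor genes Nfkbia and Nfkbib differed by -0.16 and -0.15 as deposited and by -0.094 and -0.026 after quantile normalization.

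Death effectors were higher in 6 and lower in 9 of 15 genes, with a median of -0.045 that was 0.013 after quantile normalization. Cflar, which encodes the caspase-8 inhibitor FLIP, read 7.79, 7.46 and 7.66 in Stat2 KO hosts against 8.32, 7.93 and 7.90 in WT hosts. The groups did not overlap, and the difference was -0.42 (SE 0.156, limma adjusted p = 0.509). Casp8 differed by -0.21 (-0.077 without Stat2 KO replicate 2), Cycs by -0.19 and the necroptosis kinase gene Ripk3 by 0.23.

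Genes known to be NF-kB targets went both ways, with 14 of 22 higher, 8 lower and a median of 0.025, but 9 were higher after quantile normalization. Here 3 genes, 13.6%, had an unadjusted p under 0.05, beside 8.82% of all genes. These were Gadd45b, a stress response gene, at -0.395 (SE 0.145), the chemokine gene Ccl20 at 0.36 (SE 0.135), and Ptgs2, the inducible cyclooxygenase, at -0.38 (SE 0.151). The groups of these 3 genes did not overlap, 13.6% of the list beside 13.3% of all genes.

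The list of shedding enzymes and TNF-induced proteins held the 2 pathway genes with the largest differences. Tnfaip2, a gene named for its induction by TNF, read 6.96, 6.93 and 6.61 in Stat2 KO hosts against 7.64, 7.83 and 7.43 in WT hosts. Its groups were well apart, with a difference of -0.80 (SE 0.153, 95% interval -1.13 to -0.46). Its unadjusted limma p was 0.000215 and its adjusted p 0.291. It was under an unadjusted 0.05 in 15 of 15 fits, and with array weights it passed the adjusted threshold (limma adjusted p = 0.0187, range over the fits 0.0187 to 0.801). With those weights 257 of all genes passed. Tnfaip6, which encodes the hyaluronan-binding protein TSG-6, read 6.0, 5.95 and 5.98 in Stat2 KO hosts against 5.34, 5.77 and 5.19 in WT hosts, a difference of 0.55 (SE 0.162, limma adjusted p = 0.462). The mean of Tnfaip6, 5.71, was above that of 66.5% of olfactory receptor genes, whose own median difference was 0.22. The protease genes Furin and Adam10 differed by -0.18 and 0.24, but by -0.089 without Stat2 KO replicate 3 and by 0.092 without WT replicate 2, respectively. Furin was at -0.063 after quantile normalization, and the list of 11 was higher in 6 and lower in 5, with 5 higher after quantile normalization.

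**Figure D5:**
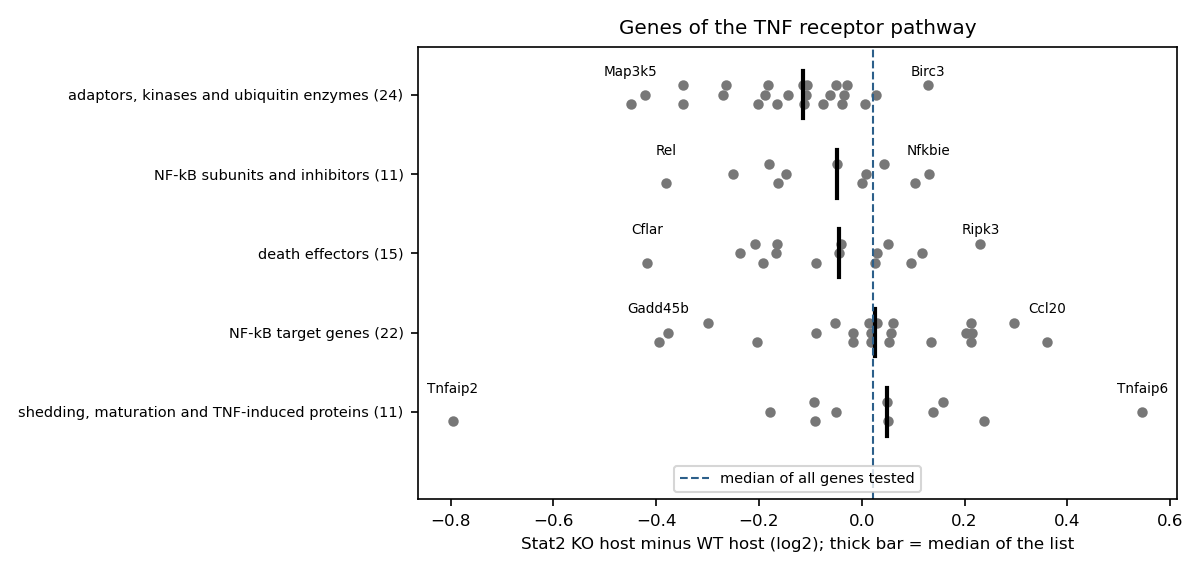
Difference between host genotypes (log2, x axis) of the measured genes of 5 pathway lists, 1 point per gene, with the number of genes in brackets, the median of each list as a thick bar and the median of all genes tested as a dashed line. Names mark the lowest and highest gene of each list, and Tnfaip2 at -0.80 and Tnfaip6 at 0.55 lie farthest out.

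Promoter windows were available for 30 of the 39 members from RefSeq on GRCm38.p6, and the 250 bases before the start were searched on both strands for 2 motifs. STAT2 acts in a complex that binds the interferon-stimulated response element, searched as GAAA, any 2 bases and GAAA. It was found for 4 of 30 members, 13.3%, and in 2.98% of 32851 promoters. An NF-kB motif, GGGA, any base and TTTCC, was found for Ltb and in 0.356% of promoters. Members were counted as genes with a match in any window, and the background as single promoter windows, so the shares are not like for like. A match is a run of letters and not a bound site.

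The windows of 50 bases with the interferon motif and the NF-kB motif are given because the first is the element that the complex of STAT2 is known to bind. They run 5′ to 3′ on the strand of the gene, with the motif in capitals, and it lies on the opposite strand in all but Tnfsf13b.
Tnfsf13b, chr8:10006583-10006632, plus strand: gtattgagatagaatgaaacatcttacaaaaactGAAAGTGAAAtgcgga
Tnfrsf14, chr4:154928112-154928161, minus strand: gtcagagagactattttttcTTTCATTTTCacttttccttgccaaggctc
Tnfrsf17, chr16:11313688-11313737, plus strand: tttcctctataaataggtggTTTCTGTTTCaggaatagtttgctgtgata
Tnfrsf1b, chr4:145246871-145246920, minus strand: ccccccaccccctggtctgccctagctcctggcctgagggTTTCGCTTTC
Ltb, chr17:35194400-35194449, plus strand, NF-kB motif: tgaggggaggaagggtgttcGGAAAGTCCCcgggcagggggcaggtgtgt
The members with the interferon motif differed by 0.069 (Tnfsf13b), 0.065 (Tnfrsf14), 0.11 (Tnfrsf17) and -0.16 (Tnfrsf1b), and Ltb by 0.043. Those of Tnfsf13b, Tnfrsf14 and Ltb turned negative after quantile normalization. The groups overlapped for all 5 of these genes, and none had an unadjusted p under 0.05.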

How the data were processed

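Total RNA of 6 tumours was hybridized to Affymetrix arrays. The deposited values are log2 expression per probe set; the submitters' processing notes name RMA and Affymetrix Expression Console 1.3.1. No genome build is given in the sources used here. Each gene was read by its brightest probe set naming only that gene (22180 genes). Host genotypes were compared with limma 3.58.1 in R 4.3.3 (lmFit, eBayes with intensity trend, two-sided, Benjamini-Hochberg over all genes, threshold 0.05). Intervals are 95% from that fit. Dim probe sets were kept, and the number of arrays limits the precision. The limma fit was tested on simulated data with independent noise and no shift by level between the groups. That test therefore does not cover such a shift. Members given by tumour had an unadjusted p under 0.05, were partners of such a gene, or stood on a fixed list of 24 genes; up to 4 genes of each pathway list were named by p. Members and lists were chosen with earlier results of these data known. Alternatives were other scalings, a replicate block, a level filter, the mean of all probe sets, no trend, array weights and leaving out each array. Probe-level signals and scan dates were not used here. Promoters came from the RefSeq table. One further promoter motif is not reported here.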

Additional observations from a re-analysis of the deposited data

How the results depend on the processing

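No member passed the adjusted threshold in limma under any of the alternatives. This was 0 of 14 among genes brighter than the median gene and 0 of 39 in each of the others. The count at an unadjusted p under 0.05, 4 members, was 1 after quantile normalization, 1 after cyclic loess, 1 among genes brighter than the median gene, where 14 members were tested, and 7 with array weights. The share of all genes at that threshold, 8.82%, was 7.51%, 7.61%, 8.46% and 22.6% in these fits, in the same order. Leaving out 1 tumour gave 1 to 8 members, with 5.31% to 14.7% of all genes. The median difference of the members, 0.066, was -0.049 after quantile normalization, -0.046 after cyclic loess and -0.14 among the brighter genes, and 0.013 to 0.125 with a tumour left out. The -0.14 is the median of the 14 members kept there, whose own differences that filter left unchanged. Of the pathway genes 0 passed, and 1 with array weights, Tnfaip2, where 257 of all genes passed. The cause of the other shifts was not tested. Small differences turned sign. Under quantile normalization, median centring and cyclic loess, in that order, Cd40lg was -0.060, -0.020 and -0.058, Cd70 -0.084, -0.042 and -0.088, Ltb -0.022, -0.024 and -0.030, Tnfsf18 -0.056, -0.007 and -0.060, and Tnfsf4 -0.088, -0.030 and -0.084. Tnfsf13b was -0.049 after quantile normalization and -0.049 after cyclic loess. Weighting the arrays gave -0.044 for Cd70 and 0.029 for Tnfrsf11a. With 1 tumour left out, the ranges were -0.083 to 0.209 for Cd40lg, -0.091 to 0.093 for Cd70, -0.062 to 0.213 for Ltb, -0.140 to 0.125 for Tnfrsf11a, -0.048 to 0.225 for Tnfsf13b, -0.050 to 0.158 for Tnfsf18 and -0.171 to 0.243 for Tnfsf4. The other 301 values of named members under the alternatives kept their direction and stayed above an adjusted p of 0.05. They include 25 values each from the replicate block, the mean of all probe sets and the fit without trend, and 9 from the level filter. Those 4 alternatives leave the difference of a member as it was, so its direction could not change there. Same-numbered tumours of the 2 groups correlated in their deviations by 0.240, 0.079 and 0.030, so the numbers were not taken as pairs. With a replicate block the count of members at an unadjusted p under 0.05 was 4, with 11.2% of all genes. The adjusted count was 0, and the block changed no call of a member.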
